A study of Mus musculus with 8 samples.

Results

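The 10 genes described here, Egr1, Egr2, Egr3, Nr4a1, Ier2, Ier3, Dusp1, Dusp2, Zfp36 and Btg2, are early response genes, chosen by symbol from the 24421 gene symbols of each count file. All 10 were found, and all 10 were among the 12623 genes with enough counts to be tested. RNA was sequenced from frozen and thawed leukemic bone marrow of C57BL/6 mice, transformed by the MLL-AF9 fusion oncogene and sorted for a high level of c-KIT, the stem cell factor receptor. The KO group holds 2 libraries of Ikzf2 KO cells, from Ikzf2Δ/Δ mice, and the WT group 2 libraries of Ikzf2 WT cells, from Ikzf2f/f mice, which carry floxed alleles. Both groups therefore share the fusion oncogene, the strain, the freezing and the sort. Ikzf2 encodes Helios, an Ikaros family DNA-binding protein. The sources used here do not name the agent that deleted the floxed alleles, the age of the mice or whether the libraries came from separate mice. The p-values therefore measure only how these libraries vary, which within WT may be technical. The 4 chromatin accessibility samples of the series were not analysed here.

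Early response genes are transcribed soon after a growth factor, cytokine or stress signal reaches a cell, without the need for new protein. ERK and p38 kinases act on promoter-bound factors such as SRF with its ternary complex partners, at the CArG box of the serum response element, and CREB, at the cyclic AMP response element. The response is brief, because many of its mRNAs are unstable and several of its products, among them the DUSP phosphatases and ZFP36, act back on the kinases or on the mRNAs. In the myeloid lineage EGR proteins are known for their part in monocyte and macrophage development, and NR4A proteins restrain myeloid leukemia in mice.

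Each library held 16006081 to 19286090 gene counts, and levels are given as CPM, the counts scaled to a common library total with TMM factors. Ikzf2, the targeted gene, had 26.5 and 10.9 CPM in KO replicates 2 and 1, against 271 and 283 CPM in WT replicates 2 and 1 (log2 fold change -3.89, SE 0.48). It did not pass edgeR's quasi-likelihood test over all genes (adjusted p = 0.332) and passed DESeq2 (adjusted p = 1.13e-13). KO replicate 1 stood apart in its sex-linked genes, with 833 CPM of Xist and 0.0619 CPM of the Y-linked Ddx3y, against 0.35 to 0.60 CPM of Xist and 70.1 to 109.5 CPM of Ddx3y in the other 3 libraries. KO replicate 1 thus had the pattern of female cells and KO replicate 2 that of male cells, so these libraries are not repeats of a single sample, and within KO the replicate number and sex cannot be told apart. Both WT libraries had the male pattern. The leukemic progenitor markers Kit, Cd34, Hoxa9, Hoxa10, Meis1, Myb, Flt3 and Cd93 were all detected, with summed levels of 3043 and 2436 CPM in KO replicates 2 and 1 and of 3126 and 2854 CPM in WT replicates 2 and 1. The replicate number is the number in the sample titles, and nothing in the labels ties libraries with the same number to a shared mouse, day or batch. The deposited files carry other numbers in their names, and there no number is shared between KO and WT. Among the principal components of log2 CPM, the first held 46.9% of the variance and separated KO from WT, and the second held 33.9% and separated number 2 from number 1.

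The 10 members are short genes. In the GRCm38.p6 annotation of RefSeq, the assembly that the files' build mm10 names, their genomic spans ran from 1199 bases (Ier3) to 20894 bases (Nr4a1), with a median of 3316 bases. The median span of the 12018 tested genes found in that annotation was 21594.5 bases. All but Nr4a1, 9 of the 10, spanned at most 7720 bases, as did 21.2% of these tested genes. Egr2 lies on chromosome 10 (67534469 to 67542188), Egr3 on chromosome 14 (70077317 to 70082613) and Nr4a1 on chromosome 15 (101253902 to 101274795). Ier2 lies on chromosome 8 (84661331 to 84662852), Ier3 on chromosome 17 (35821713 to 35822911), Dusp1 also on chromosome 17 (26505591 to 26508472) and Dusp2 on chromosome 2 (127336159 to 127338377). Zfp36 lies on chromosome 7 (28376784 to 28379228) and Btg2 on chromosome 1 (134074865 to 134079155).

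Promoter windows of 300 bases, 250 before and 50 after an annotated transcription start, were at hand from RefSeq (GRCm38.p6) for 7 members, all but Egr1, Egr3 and Ier2. They were searched on both strands for the CArG box, the CRE motif TGACG, the EGR site GCGNGGGCG and the TATA box letters TATAA. A CArG box stood in the windows of 2 of the 7 members, Egr2 and Zfp36, and in 1.81% of the 27025 genes with such a window. The CRE motif stood in 5 of 7 (Egr2, Nr4a1, Dusp1, Dusp2 and Btg2; 23% of genes), the EGR site in 4 of 7 (Nr4a1, Dusp2, Zfp36 and Btg2; 6.27% of genes) and the TATA letters in 2 of 7 (Egr2 and Ier3; 28% of genes). Matches of different motifs did not overlap, and in Dusp1 and Btg2 a pair of CRE motifs on opposite strands overlapped. A match is a description of the letters in the window, not evidence of binding, and base composition was not taken into account. The windows of Zfp36 and Egr2, which hold the CArG box, and of Dusp1 and Btg2, which hold the overlapping CRE motifs, are shown here 5′ to 3′ on the strand of the gene because these motifs are the textbook link to the signal. Capitals mark matches to any of the 4 motifs. Egr2 has 5 annotated starts, and window 3 in the annotation's order is shown, while the window of its first start held no match.
Zfp36, chr7:28379179-28379478, minus strand: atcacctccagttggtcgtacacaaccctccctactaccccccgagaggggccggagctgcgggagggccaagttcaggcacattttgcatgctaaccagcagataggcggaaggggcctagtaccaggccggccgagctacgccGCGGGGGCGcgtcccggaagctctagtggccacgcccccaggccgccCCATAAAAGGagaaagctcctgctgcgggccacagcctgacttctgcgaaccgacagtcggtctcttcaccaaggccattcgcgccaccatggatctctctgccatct
Egr2, chr10:67537619-67537918, plus strand: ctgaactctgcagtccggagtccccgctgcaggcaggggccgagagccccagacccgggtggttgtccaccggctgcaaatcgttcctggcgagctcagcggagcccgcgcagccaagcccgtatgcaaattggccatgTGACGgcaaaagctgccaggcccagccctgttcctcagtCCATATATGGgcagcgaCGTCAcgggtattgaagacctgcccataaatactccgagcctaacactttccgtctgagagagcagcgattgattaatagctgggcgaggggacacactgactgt
Dusp1, chr17:26508423-26508722, minus strand: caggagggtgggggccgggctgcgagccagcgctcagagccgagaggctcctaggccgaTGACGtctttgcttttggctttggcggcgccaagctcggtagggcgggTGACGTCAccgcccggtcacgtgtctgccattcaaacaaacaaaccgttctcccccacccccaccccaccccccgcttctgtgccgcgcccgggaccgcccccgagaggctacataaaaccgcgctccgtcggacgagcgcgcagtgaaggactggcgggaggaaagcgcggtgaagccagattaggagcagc
Btg2, chr1:134079106-134079405, minus strand: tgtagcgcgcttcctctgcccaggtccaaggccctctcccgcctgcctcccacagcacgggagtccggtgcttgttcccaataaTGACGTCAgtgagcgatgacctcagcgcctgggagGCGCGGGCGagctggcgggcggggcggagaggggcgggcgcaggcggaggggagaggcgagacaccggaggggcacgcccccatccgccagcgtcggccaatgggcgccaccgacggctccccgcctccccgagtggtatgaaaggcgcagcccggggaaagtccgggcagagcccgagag
The CArG box of Zfp36 begins 58 bases before the start and that of the shown Egr2 window 72 bases before it. The EGR sites of Zfp36 and Btg2 begin 105 and 131 bases before their starts.

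**Figure D1:**
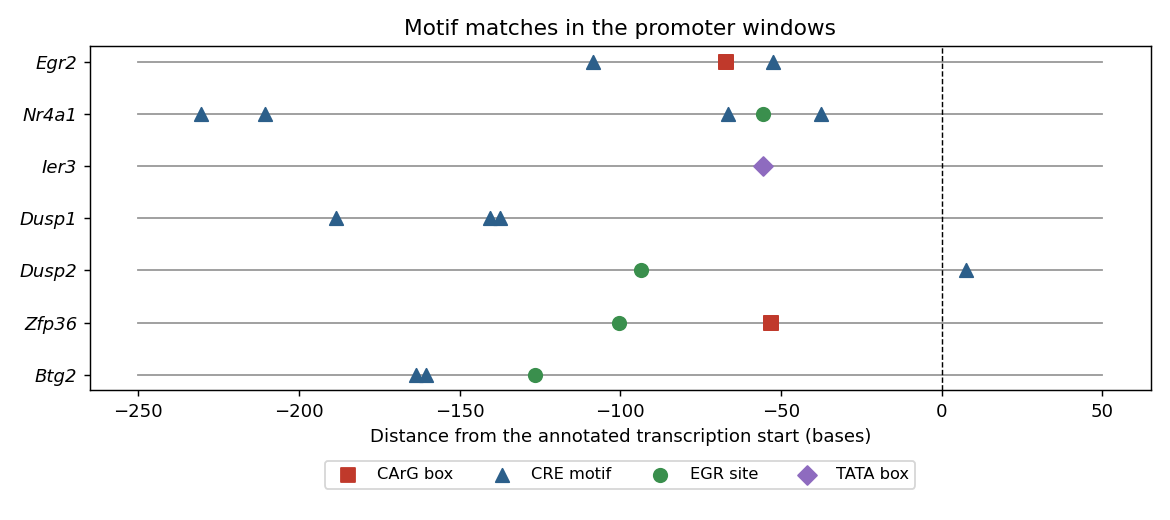
Positions of motif matches in the promoter windows of 7 early response genes, by distance from the annotated transcription start in bases; each grey line is 1 window of 300 bases and each symbol the centre of a match on either strand. For Egr2 the window printed in the text is drawn. CArG boxes appear in Egr2 and Zfp36, and CRE motifs in 5 of the 7 genes.

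All 10 members were higher in both libraries numbered 2 than in both libraries numbered 1, whichever the genotype, though for Egr3 the difference within KO lay within counting error (ratio 1.47, interval 0.812 to 2.72). Over all 12623 tested genes, 19% had both number 2 libraries above both number 1. Within KO number 2 was the higher in 10 of 10 members (49.2% of all tested genes), within WT also in 10 of 10 (49.8%), and 28.6% of all tested genes were higher in both. Summed over the 10 members, the level was 4529 CPM in KO replicate 2 and 1020 CPM in KO replicate 1, against 1816 CPM in WT replicate 2 and 674 CPM in WT replicate 1. With both number 2 libraries above both number 1 libraries, the 2 KO libraries could not lie on one side of the 2 WT libraries in any member. The absence of such a separation, which 37.2% of all tested genes showed, is therefore not a separate result. In 7 members the libraries stood in the same order, KO replicate 2, WT replicate 2, KO replicate 1 and WT replicate 1 from high to low, as they did in 4.05% of all tested genes. The exceptions were Dusp2, with KO replicate 1 lowest, Egr2 and Egr3. Among the 7 was Dusp1, whose place of KO replicate 1 above WT replicate 1 lay within counting error (ratio 1.005, interval 0.948 to 1.06). The members were chosen with earlier results of these data known, so these shares are a description.

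**Figure D2:**
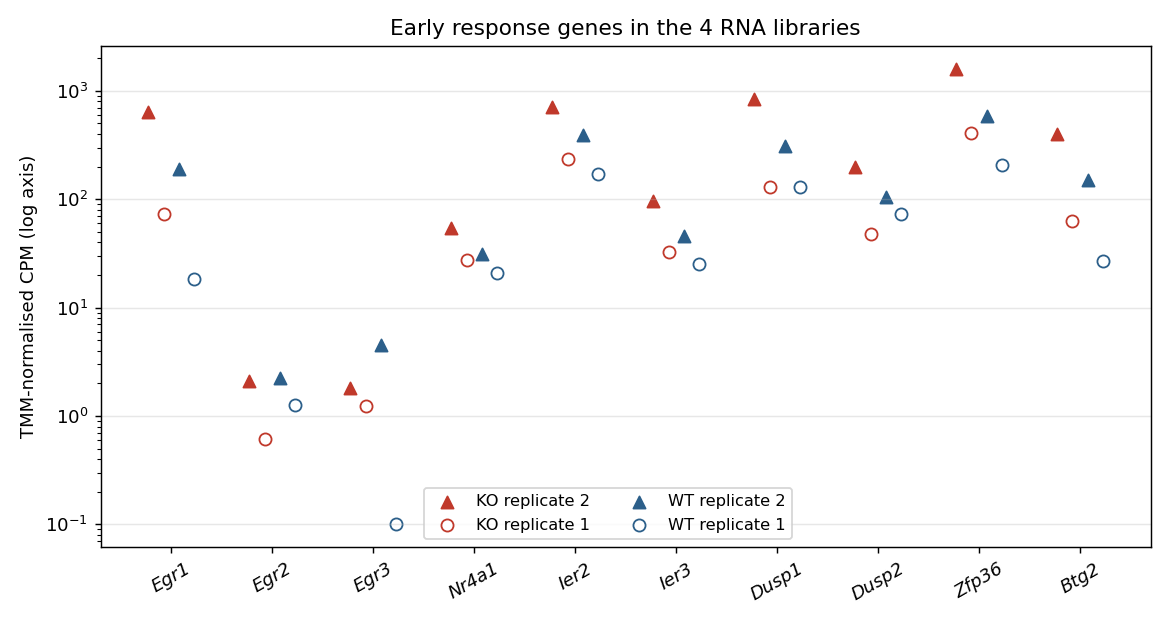
Level of each early response gene in the 4 RNA libraries, in TMM-normalised CPM on a log axis; red is KO, blue is WT, filled triangles are replicate number 2 and open circles number 1. For every gene both triangles lie above both circles, and 8 of the 10 genes are highest in KO replicate 2. The value of Egr3 in WT replicate 1 rests on 2 counts.

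Among the EGR factors, Egr1 (chromosome 18, 34861207 to 34864956) encodes a zinc finger activator that binds GC-rich sites. It had 639 CPM in KO replicate 2 and 73.3 CPM in KO replicate 1, against 189 CPM in WT replicate 2 and 18.4 CPM in WT replicate 1. The difference between numbers was 8.72-fold within KO and 10.3-fold within WT, so its size was close to equal in both genotypes. A fit with genotype and replicate number as terms gave a log2 difference of 3.24 for number 2 against number 1 (SE 0.24), and Egr1 rose with number 2 by edgeR's quasi-likelihood test over all genes (adjusted p = 0.0320). That p was 0.800 without the genotype term and 0.0512 without robust moderation of the dispersion, and ran from 4.44e-27 (DESeq2) to 0.800 over all settings.

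Egr2, a related zinc finger factor of macrophage and nerve development, was measured at a low level, with 36 and 10 counts in KO replicates 2 and 1 and 42 and 25 counts in WT replicates 2 and 1. These correspond to 2.11 and 0.619 CPM in KO and to 2.23 and 1.25 CPM in WT. Number 2 was higher in both genotypes, and its log2 difference of 1.28 (SE 0.78) did not pass edgeR (adjusted p = 0.704). Egr3, another family member, had 31 and 20 counts in KO replicates 2 and 1 and 85 and 2 counts in WT replicates 2 and 1. Its ratio of number 2 to number 1 was 1.47 within KO (95% exact binomial interval, counting error only, 0.812 to 2.72) and 45.1 within WT (12.1 to 378). The Egr3 difference within KO was thus not detectable at this depth, and the log2 difference over both genotypes, 2.61 (SE 1.44), did not pass edgeR (adjusted p = 0.693).

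Nr4a1 encodes NUR77, an orphan nuclear receptor. It had 54.8 and 27.5 CPM in KO replicates 2 and 1, against 31.3 and 20.8 CPM in WT replicates 2 and 1. It showed the smallest replicate-number difference of the 10 in the joint fit, a log2 difference of 0.79 (SE 0.25), with an unadjusted p of 0.0183 by edgeR (adjusted p = 0.485).

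Ier2 and Ier3 are named as immediate early response genes, and Ier3 is known as a regulator of cell survival induced by NF-kB. Ier2 had 705 and 233 CPM in KO replicates 2 and 1, against 396 and 172 CPM in WT replicates 2 and 1. Ier3 had 96.7 and 32.7 CPM in KO replicates 2 and 1, against 45.8 and 25.1 CPM in WT replicates 2 and 1. The ratio of number 2 to number 1 was 3.03 for Ier2 and 2.95 for Ier3 within KO, and 2.301 for Ier2 and 1.82 for Ier3 within WT. Their log2 differences for number 2 against 1 were 1.40 (SE 0.25) and 1.22 (SE 0.26), and neither passed edgeR (adjusted p = 0.206 and 0.282), while both passed DESeq2 (adjusted p = 8.46e-05 and 0.0327).

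The dual specificity phosphatases DUSP1 and DUSP2 sit in the nucleus and switch off MAP kinases. Dusp1 had 836 and 131 CPM in KO replicates 2 and 1, against 308 and 130 CPM in WT replicates 2 and 1. The libraries numbered 1 differed in Dusp1 by less than their counting error (ratio KO to WT 1.005, interval 0.948 to 1.06), while those numbered 2 differed 2.71-fold. Dusp2 had 197 and 48.0 CPM in KO replicates 2 and 1, against 105 and 73.7 CPM in WT replicates 2 and 1. KO was thus the higher genotype in Dusp2 among the libraries numbered 2 and the lower among those numbered 1. For number 2 against 1 the log2 differences were 1.96 for Dusp1 (SE 0.41) and 1.27 for Dusp2 (SE 0.43), which did not pass edgeR (adjusted p = 0.335 and 0.550) and passed DESeq2 (adjusted p = 5.83e-06 and 0.0389). Within a genotype, both differences were larger in KO, at 6.39-fold for Dusp1 and 4.10-fold for Dusp2, than in WT, at 2.37-fold and 1.42-fold.

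Zfp36 encodes tristetraprolin, which binds AU-rich elements and speeds the decay of cytokine mRNAs. It had 1600.1 and 410.2 CPM in KO replicates 2 and 1, against 583 and 205 CPM in WT replicates 2 and 1. The log2 difference for number 2 against 1 was 1.74 (SE 0.26; edgeR adjusted p = 0.181, DESeq2 adjusted p = 1.57e-07). Btg2, an antiproliferative gene induced by p53 and by growth factors, had 396 and 63.2 CPM in KO replicates 2 and 1, against 151 and 27.1 CPM in WT replicates 2 and 1. Like Egr1 it differed by a similar factor in both genotypes, 6.26-fold within KO and 5.58-fold within WT. Btg2 rose with number 2 (log2 difference 2.56, SE 0.22, edgeR adjusted p = 0.0384), a call that was lost without the genotype term (adjusted p = 0.800), without robust moderation (0.0585) and with DESeq2's size factors in edgeR (0.0548).

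For the replicate number, edgeR called 2 of the 10 members, Egr1 and Btg2, both higher in number 2, where it called 5 of 12623 genes higher (0.0396%) and 6 in either direction (0.0475%). At an unadjusted p under 0.05 it placed 8 of the 10 members higher in number 2, all but Egr2 and Egr3, against 5.64% of all genes. DESeq2 called 7 members higher, all but Egr2, Egr3 and Nr4a1, against 1.58% of all genes. The median log2 CPM difference of the 10 was 1.79 within KO and 1.22 within WT, beside -0.012 within KO and -0.0017 within WT over all tested genes. A 2-fold excess in number 2 within both genotypes was seen in 5 members, Egr1, Ier2, Dusp1, Zfp36 and Btg2, and in 2.32% of all tested genes. Within KO alone it was seen in 8 members (9.51% of all tested genes) and within WT alone in 6 (8.33%). In 8 of 10 members the difference was larger in KO than in WT, as in 49.8% of all tested genes, with Egr1 and Egr3 the other way. With 1 library for each genotype and number, whether the replicate difference itself depends on the genotype could not be tested.

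**Figure D3:**
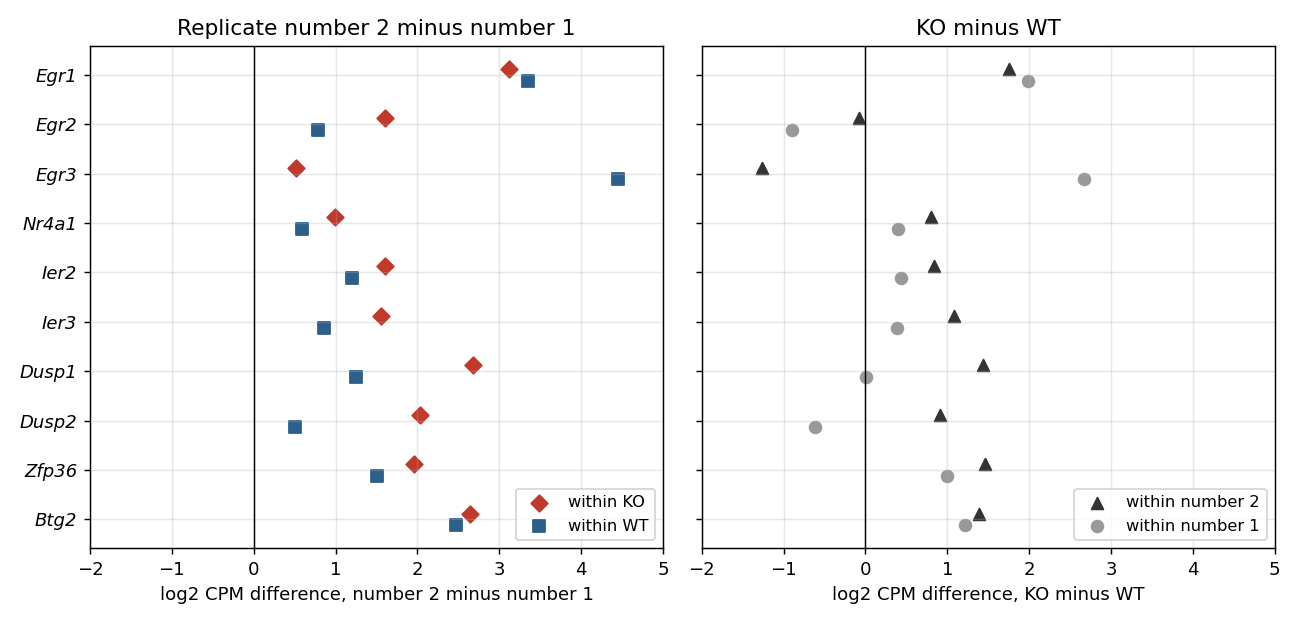
Left, log2 CPM difference of replicate number 2 minus number 1 for each early response gene, within KO (red diamonds) and within WT (blue squares); right, log2 CPM difference of KO minus WT, within number 2 (black triangles) and within number 1 (grey circles). Each point compares 1 library with 1 library. All points on the left lie above 0, while on the right Egr2 lies below 0 and Egr3 and Dusp2 take both signs.

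KO was set against WT to ask whether these genes depend on Ikzf2. Of the 10 members, 8 had a log2 fold change above 0, against 49.5% of all tested genes, and none of the 10 passed edgeR, where 0 of 12623 genes passed (0%), 524 had an unadjusted p under 0.05 on the higher side (4.15%) and 444 on the lower (3.52%). No member had an unadjusted p under 0.05, and DESeq2 called 0 members and 341 of the same 12623 genes (2.7%). These fits carry no term for the replicate number. With that term DESeq2 called 3 members, Egr1, Btg2 and Zfp36, beside 2.99% of all tested genes, and edgeR called 0 members, beside 0.0871%. The largest fold change was that of Egr1, 1.78 on the log2 scale (SE 1.38, adjusted p = 0.869). Btg2 followed with 1.36 (SE 1.12, adjusted p = 0.883) and Zfp36 with 1.35 (SE 0.80, adjusted p = 0.804). Dusp1 had 1.14 (SE 0.92), Ier3 0.87 (SE 0.59), Ier2 0.73 (SE 0.65), Nr4a1 0.66 (SE 0.41) and Dusp2 0.46 (SE 0.67), with adjusted p between 0.822 and 0.948. Egr2 had -0.34 (SE 0.84) and Egr3 -0.59 (SE 1.45), and Egr3 was at 1.07 by voom. In each member the edgeR difference between numbers was larger than that between genotypes. This largely follows from both number 2 libraries lying above both number 1 libraries, and is not a separate result. An exact permutation test of a single gene could not go below p = 0.333 with 2 libraries against 2.

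Fits that leave out a library set unequal mixes of the replicate numbers against each other, and since all 10 members were higher in number 2, this alone moves their fold changes. Without KO replicate 2, 2 of the 10 fold changes were above 0, at 0.08 for Nr4a1 and 0.06 for Zfp36. In that fit Egr1 stood at -0.50, Btg2 at -0.49, Dusp1 at -0.75, Dusp2 at -0.89, Ier2 at -0.28 and Ier3 at -0.12. Without KO replicate 1, 9 were above 0, with Egr2 at 0.28, and without WT replicate 2 all 10 were, with Egr2 at 0.14 and Egr3 at 3.86.

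Within a replicate number, where 1 KO library is set against 1 WT library, KO was higher in 8 of 10 members for number 2 and in 8 of 10 for number 1, beside 49.5% and 49.1% of all tested genes. The members on the lower side were Egr2 and Egr3 within number 2, and Egr2 and Dusp2 within number 1. Egr1 was 3.38-fold higher in KO within number 2 and 3.98-fold within number 1. Btg2 was 2.62-fold and 2.33-fold higher in KO within numbers 2 and 1, and Zfp36 2.74-fold and 2.00-fold. The KO excess of Egr1 and Btg2 was thus of similar size in both numbers, while that of Zfp36 was larger within number 2. Ier2 was 1.78-fold and 1.36-fold higher, Ier3 2.11-fold and 1.30-fold, and Nr4a1 1.75-fold and 1.32-fold. In all of these genes the counting intervals of both ratios lay above 1. Dusp1 was 2.71-fold higher in KO within number 2. Within number 1, where it is counted as higher, it did not differ beyond counting error (ratio 1.005, interval 0.948 to 1.06). Egr2 did not differ between the genotypes beyond counting error, with a KO to WT ratio of 0.948 within number 2 (interval 0.590 to 1.52) and 0.495 within number 1 (interval 0.212 to 1.07). A single ratio of this kind has no replicate of its own. The KO difference averaged over both numbers was tested by the fit with genotype and replicate number as terms, which treats the number as a block although the labels do not tie libraries by it. In that fit edgeR called 0 members and 11 of 12623 genes (0.0871%), with Egr1 at 1.87 on the log2 scale (unadjusted p = 1.49e-04, adjusted p = 0.0695), Btg2 at 1.31 (adjusted p = 0.108) and Zfp36 at 1.23 (adjusted p = 0.183). Ier2 and Ier3 had an unadjusted p of 0.0376 and 0.0299 in the same edgeR fit (adjusted p = 0.473 and 0.423). DESeq2, an alternative added after the data were seen, called 3 members higher in KO in that fit, Egr1 (adjusted p = 7.90e-09), Btg2 (adjusted p = 4.65e-04) and Zfp36 (adjusted p = 6.73e-04), and 2.99% of the 12623 genes in either direction. The KO call for these genes thus depended on the tool and on the replicate term.

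**Figure D4:**
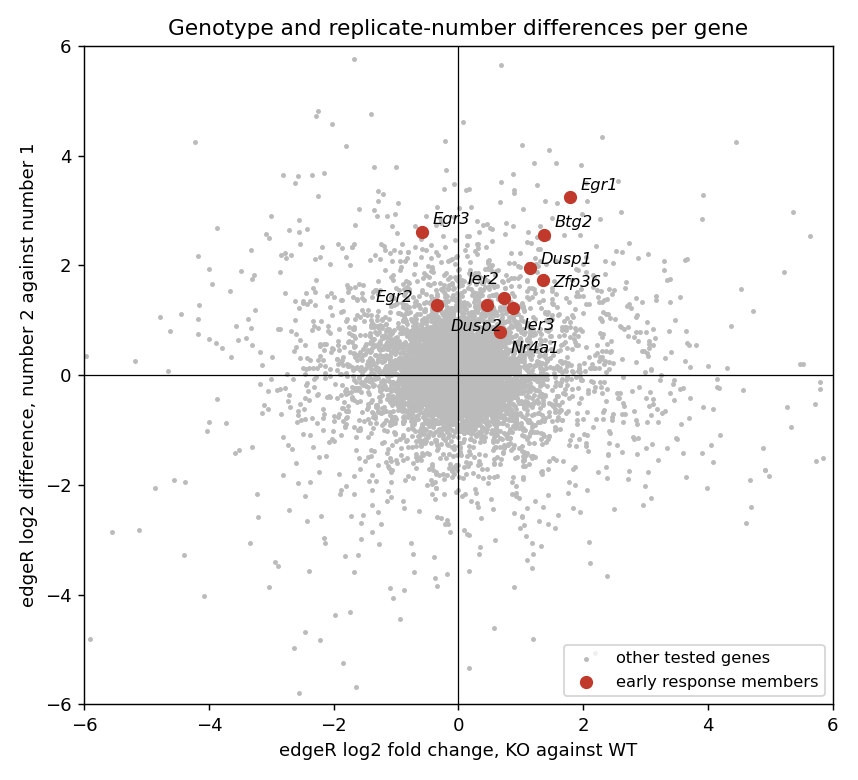
Every tested gene by its edgeR log2 fold change of KO against WT (horizontal) and its log2 difference of replicate number 2 against number 1 (vertical), with the 10 early response genes in red; 39 genes lie outside the plotted range of 6 in either direction. All 10 red points lie above 0 on the vertical axis, and 8 lie right of 0 on the horizontal axis.

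Relatives of the members were set beside them. Over all 12623 tested genes, 6205 had a log2 difference above 0 for number 2, and 19% had both number 2 libraries above both number 1. DESeq2 called 1.58% of all tested genes higher in number 2. None of the 4 tested EGR, NAB and NR4A relatives passed edgeR or DESeq2 for the replicate number, all 4 had a log2 difference above 0, and 1 had both number 2 libraries above both number 1. Nab1, which encodes a corepressor of EGR proteins, had 100.03 and 103 CPM in KO replicates 2 and 1, against 114 and 56.7 CPM in WT replicates 2 and 1. Its partner Nab2 had 14.4 and 18.1 CPM in KO, against 39.0 and 9.60 CPM in WT, in the same order. For both, number 2 was the higher within WT and not within KO. Nr4a3, a paralog of Nr4a1 named after its values were seen, had 44 and 14 counts in KO replicates 2 and 1, against 1 and 2 counts in WT replicates 2 and 1. Its log2 fold change of KO against WT, 4.37 (SE 1.04), had an unadjusted p of 0.00724 and did not pass edgeR (adjusted p = 0.444) or DESeq2 (adjusted p = 0.0811). The KO to WT ratio of Nr4a3 was 48.7 within number 2 (counting interval 8.29 to 1966) and 8.66 within number 1 (1.99 to 78.5).

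Of 14 tested relatives of the IER, DUSP, ZFP36 and BTG genes, 12 had a log2 difference above 0 for number 2 (all tested genes: 6205 of 12623). Both number 2 libraries lay above both number 1 in 7 (all tested genes: 19%), and 0 passed edgeR. DESeq2 called 4 as higher in number 2 (1.58% of all tested genes), and these 4 are named for that reason. Dusp5 had 10.9 and 2.85 CPM in KO replicates 2 and 1, against 15.8 and 1.10 CPM in WT replicates 2 and 1. Dusp6, the cytoplasmic phosphatase of ERK, had 79.4 and 56.0 CPM in KO, against 79.2 and 11.9 CPM in WT, in the same order. Zfp36l1, a paralog of Zfp36, had 39.9 and 12.2 CPM in KO, against 37.5 and 4.35 CPM in WT. The fourth, Tob1, an antiproliferative relative of Btg2, had 78.6 and 19.1 CPM in KO, against 37.4 and 13.2 CPM in WT. The most abundant relatives in this list were Zfp36l2, at 384 and 394 CPM in KO replicates 2 and 1 and 360.3 and 336 CPM in WT replicates 2 and 1, and Tob2, at 178 and 129.98 CPM in KO and 198 and 160.1 CPM in WT, which did not pass either test.

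Other early response genes were also mostly higher in number 2. Of 10 AP-1 genes 9 had a log2 difference above 0 (all tested genes: 6205 of 12623), and 7 had both number 2 libraries above both number 1 (19%). DESeq2 called 6 of the AP-1 genes as higher in number 2 (all tested genes: 1.58%) while edgeR called 0. Fos and Jun, the most abundant AP-1 genes, had 2098 and 408 CPM (Fos) and 2832 and 383 CPM (Jun) in KO replicates 2 and 1, against 991 and 177 CPM and 1002 and 303 CPM in WT replicates 2 and 1. Of 28 further early response genes all 28 had a log2 difference above 0, and 14 had both number 2 libraries above both number 1. Among these 28 edgeR called 0 and DESeq2 9 as higher, and the shares of all tested genes are those just given. Rhob, a small GTPase, had 1080.2 and 378 CPM in KO replicates 2 and 1, against 350 and 209 CPM in WT replicates 2 and 1, and Mcl1, a survival factor of the BCL2 family, had 725 and 347 CPM in KO, against 419 and 297 CPM in WT. Rhob was not among the 14, as both its KO libraries lay above both WT libraries, 3.09-fold within number 2 and 1.81-fold within number 1. For KO against WT, 25 of these 28 were above 0, beside 49.5% of all tested genes. Here edgeR called 0 of them and DESeq2 2 as higher, where DESeq2 called 204 of all 12623 tested genes. The median log2 CPM difference of KO minus WT over the 28 was 1.20 within number 2 and 0.30 within number 1. Of the 10 AP-1 genes 6 were above 0 for KO against WT and 4 below, with medians of 1.04 within number 2 and -0.19 within number 1.

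Genes of the signalling steps upstream had medians near 0 for the replicate number. The median log2 CPM difference of number 2 minus 1 over 8 SRF and ternary complex factor genes was 0.13 within KO and 0.04 within WT, over 16 tested ERK cascade genes 0.15 and 0.04, and over 10 JNK and p38 cascade genes 0.08 and 0.08. Of these 34 genes edgeR and DESeq2 called 0 for the replicate number, with 1 at an unadjusted edgeR p under 0.05. For KO against WT, 3 of the 8 SRF and ternary complex factor genes had both KO libraries below both WT (19.1% of all tested genes), and 1 had both above (18.1%). DESeq2 called 1 of the 8, Elk3, lower in KO (adjusted p = 0.0231), where it called 137 of all 12623 tested genes lower. Elk3 did not pass edgeR (log2 fold change -1.28, adjusted p = 0.444). Srf, the serum response factor, had 131 and 142 CPM in KO replicates 2 and 1, against 186 and 187 CPM in WT replicates 2 and 1. Mkl1, a coactivator of SRF, had 237 and 230.1 CPM in KO, against 199 and 229 CPM in WT. The kinase gene Mapk14 (p38 alpha) had 409 and 470.3 CPM in KO, against 412 and 437 CPM in WT. Rps6ka1 and Mapkapk2, kinases downstream of ERK and p38, had 1259 and 812 CPM and 571 and 568 CPM in KO, against 1004 and 894 CPM and 522 and 472 CPM in WT. mRNA levels carry no measure of kinase activity.

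Among mRNAs that tristetraprolin is known to bind in mouse macrophages, 7 of the 12 listed were tested. A log2 difference above 0 for number 2 was seen in 6 (all tested genes: 6205 of 12623). Both number 2 libraries lay above both number 1 in 5 (19%), while edgeR called 0 and DESeq2 2 as higher (1.58%). Tnf, the cytokine, had 72.4 and 22.4 CPM in KO replicates 2 and 1, against 33.6 and 6.45 CPM in WT replicates 2 and 1, a log2 difference of 2.03 (SE 0.28) that passed DESeq2 (adjusted p = 3.54e-05) and not edgeR (adjusted p = 0.178). Ccl3, a chemokine, had 93.1 and 27.3 CPM in KO, against 59.6 and 39.1 CPM in WT. Tnf thus had the same order of libraries as Zfp36, while Ccl3 was lowest in KO replicate 1.

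**Figure D5:**
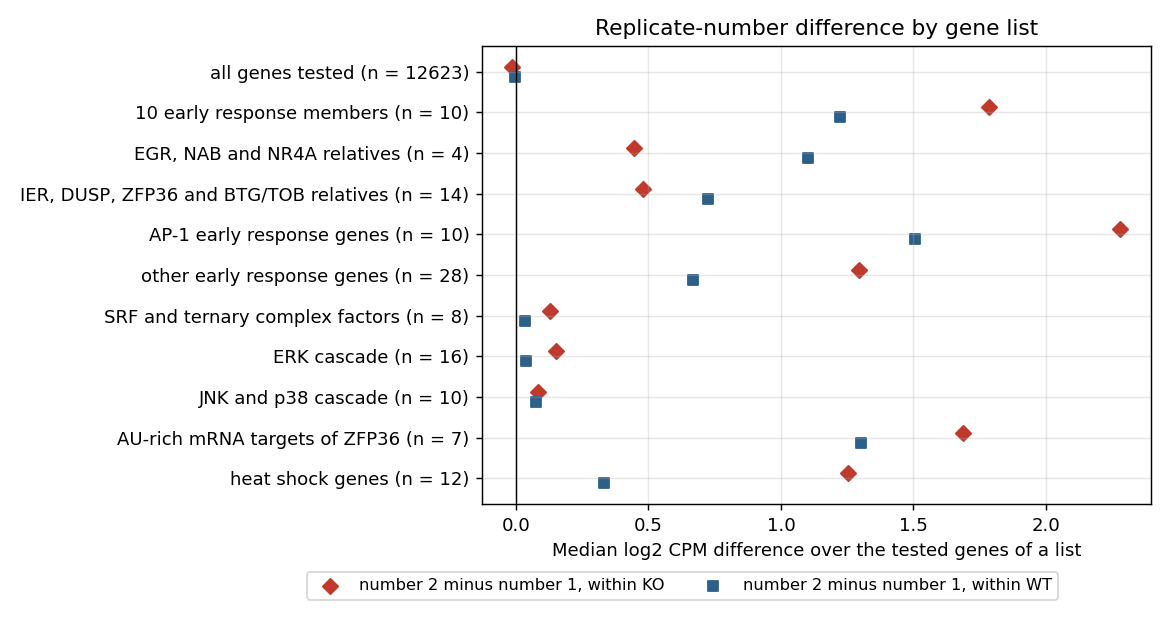
Median log2 CPM difference of replicate number 2 minus number 1 over the tested genes of each list, within KO (red diamonds) and within WT (blue squares), 1 library against 1 library. The early response lists and the AU-rich mRNA list lie above 0 in both genotypes, and the SRF, ERK and JNK/p38 lists reach at most 0.15.

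Genes with the profile nearest to the mean of the 10 members were sought among all other tested genes, by the root mean square distance of log2 CPM centred over the 4 libraries. The 5 nearest were Tob1 (distance 0.0945), Fam129a (0.123), Gadd45a (0.145), Junb (0.154) and Sele (0.177), where the distances of the members themselves ran from 0.21 (Ier2) to 1.09 (Egr3). Gadd45a, a stress-inducible gene of growth arrest, had 103 and 25.5 CPM in KO replicates 2 and 1, against 43.9 and 16.3 CPM in WT replicates 2 and 1. Junb, an AP-1 subunit, had 560.5 and 144 CPM in KO, against 279 and 115 CPM in WT. Fam129a had 33.3 and 7.55 CPM in KO, against 18.5 and 4.75 CPM in WT, and Sele, the endothelial adhesion molecule E-selectin, was low throughout, at 0.65 to 4.29 CPM. With 4 libraries a near profile is a description only.

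Heat shock genes and markers of other cells also differed between the numbers. Of 12 tested heat shock genes 11 had a log2 difference above 0 for number 2, as did 6205 of all 12623 tested genes. The summed level of the heat shock genes was 6110.1 and 3307 CPM in KO replicates 2 and 1, against 5922 and 4308 CPM in WT replicates 2 and 1. Hspa1a, an inducible chaperone whose reads can be shared with the near-identical Hspa1b, had 85.4 and 4.45 CPM in KO, against 3.93 and 0.200 CPM in WT, and rose with number 2 (log2 difference 4.26, SE 0.35, edgeR adjusted p = 0.0384, with adjusted p between 5.39e-14 and 0.800 over all settings). Hspa1a was also higher in KO, 21.7-fold within number 2 and 22.3-fold within number 1, with 4 counts in WT replicate 1. For KO against WT it did not pass edgeR (adjusted p = 0.668) and passed with the replicate number as a block (edgeR adjusted p = 0.0259). Of 9 tested neutrophil markers all 9 had a log2 difference above 0, with summed levels of 16965 and 12451 CPM in KO replicates 2 and 1, against 3699 and 736 CPM in WT replicates 2 and 1, and none at 0. For KO against WT these 9 were also all above 0 (49.5% of all tested genes), and in 6 both KO libraries lay above both WT libraries (18.1%). Among them Mmp9, a granule protease named after its values were seen, rose with number 2 (278 and 26.0 CPM in KO, against 255 and 25.6 CPM in WT; edgeR adjusted p = 0.0320, between 2.20e-27 and 0.165 over all settings). Monocyte and macrophage markers, 8 of 8 tested, summed to 1687 and 1908 CPM in KO, against 1214 and 2245 CPM in WT, and dendritic cell markers, 7 of 8 tested, to 410.2 and 1858 CPM in KO, against 189 and 325 CPM in WT. Of the 8 monocyte and macrophage markers, 4 were above 0 for number 2 and 4 below. For KO against WT 5 of them were above 0 and 3 below. Within number 1 their sum was lower in KO, while their median log2 CPM difference of KO minus WT was 1.63. Of the 7 dendritic cell markers 1 was above 0 for number 2 and 6 below, and for KO against WT 5 were above and 2 below. T and NK, B, erythroid, megakaryocyte and stromal markers summed to at most 258 CPM in any library, and the haemoglobin genes, Cd8a and Ppbp were at 0 in all 4. The ribosomal precursor Rn45s took 0.686% and 1.36% of gene counts in KO replicates 2 and 1, against 1.08% and 0.998% in WT replicates 2 and 1. The part of these differences in the early response values was not tested, and in bulk RNA a change in the share of cells that express a gene and a change of RNA per cell cannot be told apart.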

How the data were processed

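Whole-gene counts of 4 RNA libraries were used as the authors deposited them, 1 file per library, with 5 summary lines of reads in no gene (69.3 to 72.4% of all entries) left out. Per the submitters' processing notes, STAR 2.3.0 and HTSeq were among the tools and mm10 was the build. The sources used here name neither the annotation nor the strand setting, so reads of overlapping or antisense genes may be merged. Counts of 16651 genes with any count were filtered by expression to 12623, scaled with TMM factors and tested with edgeR 4.0.16 (quasi-likelihood, robust, R 4.3.3), with Benjamini-Hochberg adjustment at 0.05. KO against WT was fitted on genotype alone, and the replicate number was fitted with genotype as a second term, which leaves 1 residual degree of freedom. Each SE is the absolute log2 difference divided by the square root of the edgeR F statistic, and so restates the test. Log2 CPM used a prior count of 2. DESeq2 1.42.0, voom (limma 3.58.1), other scalings, no filter, a replicate block and each library left out were alternatives, and the fits were tested on simulated data. Intervals of counts and ratios cover counting error only (95%), and a count of 0 allows up to 3 counts, or 0.150 to 0.185 CPM. Named besides the members were Ikzf2, the genes edgeR called in each non-marker list or, where it called none, the 2 most abundant, and the 5 genes of nearest profile. One gene that this rule names is not reported here. Genes named after their values were seen are marked so or named for a DESeq2 call. The members and lists were chosen with earlier results of these data known.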

Additional observations from a re-analysis of the deposited data

Results flagged for a closer look

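Egr3 and Dusp2 differed between the genotypes in opposite directions within the 2 replicate numbers. The log2 CPM difference of KO minus WT was -1.26 within number 2 and 2.68 within number 1 for Egr3, whose WT replicate 1 held 2 counts. For Dusp2 it was 0.91 within number 2 and -0.62 within number 1. The counting intervals of all 4 ratios leave out 1, at 0.258 to 0.615 and 3.005 to 109 for Egr3 and at 1.78 to 1.99 and 0.597 to 0.711 for Dusp2. With 1 library for each genotype and number, the difference between the numbers was not tested.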

How the results depend on the processing

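All 10 members stayed higher in both number 2 libraries under TMM, DESeq2's size factors and library sizes alone. For the replicate number, edgeR called 6 genes and 2 members. It called 3 genes and 1 member with DESeq2's size factors, 75 genes and 4 members without the filter on low counts, and 0 genes and 0 members without robust moderation (1080 genes at an unadjusted p under 0.05) or without the genotype term (767 such genes). DESeq2 called 265 genes and 7 members. For KO against WT, edgeR called 0 genes (968 at an unadjusted p under 0.05), 4 without the filter, and 0 to 156 with 1 library left out, with 156 without WT replicate 2 and 50 without WT replicate 1. DESeq2 called 352 genes over the 16651 genes with a count. The cause of these differences was not tested.

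With the replicate number as a block, edgeR called 11 genes (0.0871%) and 0 members for KO against WT, and Egr1 was at 1.87 (adjusted p = 0.0695). The replicate block with DESeq2, an alternative chosen after seeing the data, called 381 genes (2.29%) and 3 members, Egr1 (adjusted p = 7.90e-09), Zfp36 (6.73e-04) and Btg2 (4.65e-04). Deviations of same-numbered libraries from their group means correlated at 0.191 over 12623 genes, and with 2 libraries a group the numbers are not shown to pair the samples.

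Egr3 for KO against WT turned to 1.07 with voom, 0.64 with the replicate block and 0.92 with that block in DESeq2, and Zfp36l2 for the replicate number turned to -0.038 with library sizes alone. With 1 library left out, the number of members with a KO against WT log2 fold change above 0 ran from 2 to 10. The fold changes that turned sign ran from -0.50 to 4.29 for Egr1, -1.48 to 0.28 for Egr2, -1.55 to 3.86 for Egr3, -0.28 to 1.46 for Ier2, -0.12 to 1.45 for Ier3, -0.75 to 1.93 for Dusp1, -0.89 to 1.15 for Dusp2 and -0.49 to 3.10 for Btg2. The replicate differences that turned ran from -0.048 to 1.004 for Nab1, -0.33 to 2.01 for Nab2, -0.039 to 0.102 for Zfp36l2 and -0.209 to 0.044 for Mkl1. Leaving out a library leaves the fit of the replicate number with no residual degrees of freedom, so those values have no test. With 2 libraries a group, and 2 to 85 counts for Egr2 and Egr3, small differences were not detectable.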
